A study of Mus musculus with 9 samples.

Results

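The small heat shock proteins of muscle were followed in mouse cells through all 14 probe sets that the array's annotation assigns to Hspb1, Hspb2, Hspb3, Hspb6, Hspb7, Hspb8 or Cryab, out of 45101 probe sets on the array. These are 7 of the 18193 genes with a probe set of a single symbol. RNA was measured on 9 one-colour Affymetrix arrays, 3 per cell type. Chemically induced cardiomyocyte-like cells (CiCM) are contracting clusters picked on day 24 from mouse embryonic fibroblasts treated with 6 small molecules. The cocktail was 10 µM CHIR99021, 10 µM RepSox, 50 µM Forskolin, 0.5 mM VPA, 5 µM Parnate and 1 µM TTNPB. They inhibit GSK3, inhibit the TGF-beta receptor, raise cAMP, inhibit histone deacetylases, inhibit LSD1 and activate retinoic acid receptors, in that order. Cardiomyocytes (CM) came from mouse hearts, whose age and strain the labels do not give. Mouse embryonic fibroblasts (MEF) came from C57BL/6 embryos at embryonic day 13.5 and are labelled as isolated directly from them. CiCM clusters were picked for beating, so they do not stand for all treated cells, and treatment and cell type cannot be told apart.

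Small heat shock proteins are chaperones that need no ATP. They share an alpha-crystallin domain, assemble into dimers and larger oligomers, and hold partly unfolded proteins until the HSP70 system refolds them or autophagy removes them. Striated muscle carries many of them at the Z-disc and on intermediate filaments, where contraction strains proteins. Some members, among them Hspb1 and Cryab, respond to heat shock factor, while others, such as Hspb2 and Hspb3, are known as muscle genes rather than as heat-induced genes.

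Values are log2 signals as deposited, so a difference of 1 is a doubling. The labels call the samples biological replicates and do not say whether they came from separate cultures or animals, so p-values measure the spread between these arrays. Arrays of one group correlated at r between 0.930 and 0.975 over the 12559 tested genes, which are not independent replicates. Among the CM arrays, replicate 1 carried far more atrial transcript than its partners: Sln was at 14.95 there and at 8.14 and 2.97 in replicates 2 and 3, and Myl7 at 15.05, beside 9.25 and 5.98. Fat cell genes were also high on that array: Adipoq was at 13.50, beside 6.21 and 5.09, and Cidec at 10.70, beside 1.81 and 0. Some results are therefore also given without it. Others moved as well and are not given, though the counts of called members stayed the same. Of the 10 cardiomyocyte markers, 4 lay at or above 6.58 (the median of the whole table) in CiCM, 10 in CM and none in MEF. All 10 skeletal muscle markers lay above that level in CiCM, 3 in CM and 1 in MEF. The label of cardiomyocyte-like cells thus stands beside skeletal muscle transcripts in CiCM, while CM carried the markers of their label. In bulk RNA, fewer cells of a type and less RNA per cell cannot be told apart.

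Promoter windows from RefSeq (GRCm38.p6, from 250 bases before to 50 after the annotated start) were found for 5 of the 7 genes. Hspb3 and Hspb7 are shown because they had the largest differences from fibroblasts, Hspb6 because its pattern stood apart from the others, and Hspb1 because it differed least between CM and MEF. Capitals mark matches on either strand to a heat shock element (GAANNTTC or TTCNNGAA), an E-box (CANNTG), a MEF2 site or a TATA box (TATAAA). The windows are chr13:113663627-113663926 on the minus strand for Hspb3, chr4:141420529-141420828 on the plus strand for Hspb7, chr7:30553051-30553350 on the plus strand for the second annotated start of Hspb6, and chr5:135887669-135887968 on the plus strand for Hspb1.
Hspb3: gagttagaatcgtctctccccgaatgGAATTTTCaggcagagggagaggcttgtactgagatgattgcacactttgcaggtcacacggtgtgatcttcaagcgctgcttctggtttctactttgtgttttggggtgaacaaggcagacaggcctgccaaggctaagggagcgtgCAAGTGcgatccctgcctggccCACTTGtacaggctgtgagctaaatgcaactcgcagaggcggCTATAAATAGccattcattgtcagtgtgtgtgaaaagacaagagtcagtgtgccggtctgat
Hspb7: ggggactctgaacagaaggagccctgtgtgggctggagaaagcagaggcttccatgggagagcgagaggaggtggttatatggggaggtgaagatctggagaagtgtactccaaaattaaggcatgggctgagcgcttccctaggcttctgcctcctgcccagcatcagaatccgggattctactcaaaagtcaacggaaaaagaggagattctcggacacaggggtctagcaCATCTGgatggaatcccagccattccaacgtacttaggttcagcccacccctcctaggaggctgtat
Hspb6: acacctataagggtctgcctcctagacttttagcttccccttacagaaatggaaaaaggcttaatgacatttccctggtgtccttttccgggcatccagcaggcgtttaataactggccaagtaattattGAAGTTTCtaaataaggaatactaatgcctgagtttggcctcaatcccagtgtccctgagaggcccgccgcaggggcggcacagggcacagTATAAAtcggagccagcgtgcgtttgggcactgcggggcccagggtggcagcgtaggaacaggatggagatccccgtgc
Hspb1: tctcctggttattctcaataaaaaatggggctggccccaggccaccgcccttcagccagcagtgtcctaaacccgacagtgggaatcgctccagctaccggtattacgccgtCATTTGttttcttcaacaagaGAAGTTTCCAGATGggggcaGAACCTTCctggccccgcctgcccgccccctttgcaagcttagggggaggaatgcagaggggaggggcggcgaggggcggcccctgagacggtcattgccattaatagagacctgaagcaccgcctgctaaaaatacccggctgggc

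The Hspb1 window held 2 heat shock elements, which begin at -117 and -97 from the start, and the second of its 2 E-boxes directly follows the first of them, sharing no base with it. Hspb3 held a MEF2 site at -12, inside which the TATA box lies, together with 2 E-boxes at -76 and -54 and a heat shock element at -224. The Hspb6 window had a heat shock element at -120 and a TATA box at -29, and the window of its other start matched none of these motifs. Hspb7 had 1 E-box at -17. In Hspb8, a heat shock element began at 2, counted from the annotated start, and an E-box at -132. Over all 32851 promoter windows in the table, 15.1% held the heat shock element, 72.3% the E-box, 3.19% the MEF2 site, 13.6% the TATA box and 1.63% the CArG box, which no window of the 5 genes held. A match describes letters and not a bound site.

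Most of the family was higher in muscle-like cells than in fibroblasts. In CiCM against MEF, 5 of the 7 genes were called higher and none lower, where 11.6% of the 12559 tested genes were called higher, 12.2% lower and 23.8% in either direction. A call is a limma adjusted p under 0.05 with a difference of at least 1. In CM against MEF, 6 of 7 were called higher and none lower, where 22.1% of tested genes were called higher, 21.8% lower and 43.9% in either direction. The median difference of the 7 genes was 2.85 for CiCM minus MEF and 3.94 for CM minus MEF, against -0.03 over all tested genes in both. Both comparisons share the MEF arrays. Read from the brightest probe set of each gene, none of the 7 had overlapping arrays between the groups of any comparison. Of all tested genes, 68.5% had no overlap between CiCM and MEF, 75.2% between CM and MEF and 67.9% between CiCM and CM.

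**Figure D1:**
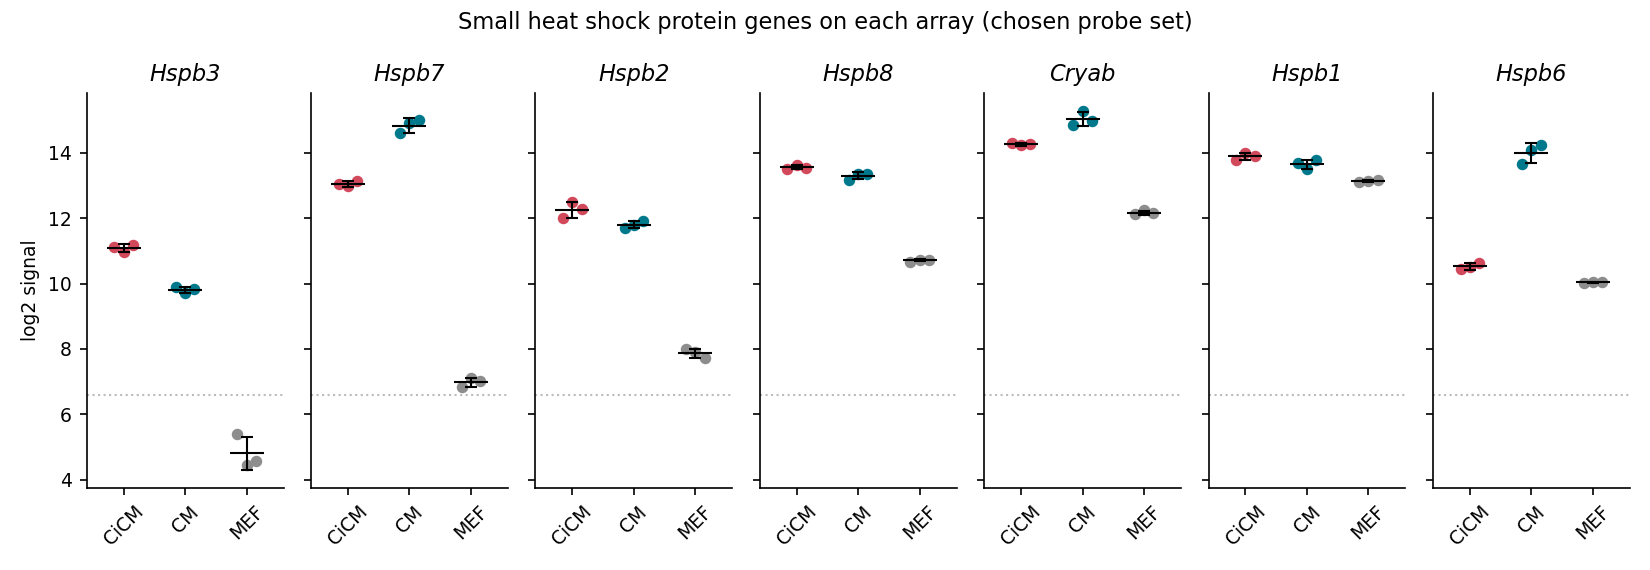
Log2 signal (vertical axis) of each small heat shock protein gene on the 3 CiCM, 3 CM and 3 MEF arrays, with the mean and SD (bars, n = 3) and the table's median of 6.58 (dotted). Hspb3, Hspb7, Hspb2, Hspb8 and Cryab sit high in both CiCM and CM, Hspb1 is high in all groups, and Hspb6 is high in CM with CiCM close to MEF.

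Hspb3 and Hspb2, which form a complex with each other in muscle, were both called higher in CiCM and in CM than in fibroblasts. Hspb3 was at 11.13, 10.95 and 11.20 in CiCM and at 9.91, 9.71 and 9.82 in CM, against 5.39, 4.46 and 4.58 in MEF. Every MEF value lay under the table's median of 6.58, so the gene was tested because CiCM and CM carried it. It was higher by 6.29 ± 0.23 in CiCM than in MEF (SE, n = 3 arrays each; limma adjusted p = 8.79e-09) and by 5.00 ± 0.23 in CM than in MEF (limma adjusted p = 1.51e-08). With 32 added to each linear signal, which damps noise near the floor, these differences were 5.19 and 3.94, and over all settings tried they were no lower than 3.88 and 2.71. CiCM exceeded CM by 1.28 ± 0.23 (limma adjusted p = 0.000543), the only member called higher in that comparison, where 16.5% of tested genes were. The order of levels for Hspb3 was CiCM, CM, MEF, and every neighbouring pair differed beyond its spread.

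Hspb2, also called MKBP, binds and activates the kinase DMPK. Its single probe set read 12.01, 12.49 and 12.29 in CiCM and 11.69, 11.81 and 11.93 in CM, against 7.99, 7.91 and 7.71 in MEF. The MEF arrays were the low ones, and CiCM and CM lay close, with the lowest CiCM array just above the highest CM array. The difference was 4.39 ± 0.13 for CiCM minus MEF (SE; limma adjusted p = 2.73e-09), a 21.0-fold change, and 3.94 ± 0.13 for CM minus MEF (limma adjusted p = 2.00e-09), a 15.3-fold change. CiCM minus CM was 0.45, with a 95% interval of 0.16 to 0.75 (limma adjusted p = 0.0118), under the minimum difference. Dmpk, its partner kinase, was higher by 2.68 in CiCM and by 3.63 in CM than in MEF (limma adjusted p = 3.72e-07 and 1.34e-08).

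Hspb7, the cardiovascular small heat shock protein, binds filamin C and is needed for the assembly of heart muscle. It stood at 13.05, 12.98 and 13.15 in CiCM and at 14.60, 14.92 and 15.004 in CM, against 6.83, 7.11 and 7.01 in MEF. The 3 groups did not overlap, with CM highest and MEF near the table's median. CiCM exceeded MEF by 6.08 ± 0.12 (SE; limma adjusted p = 3.73e-10), or 67.5-fold, and CM exceeded MEF by 7.86 ± 0.12 (limma adjusted p = 2.99e-11), or 232-fold. With 32 added the differences were 5.76 and 7.53. CiCM remained below CM, by -1.78 ± 0.12 (limma adjusted p = 4.97e-07), or -1.90 without CM replicate 1. Flnc, the client filamin, was at 11.46, 11.62 and 11.80 in CiCM and at 10.88, 10.32 and 10.97 in CM, against 10.00, 9.94 and 9.85 in MEF. The CiCM arrays were the highest for Flnc, which was called higher in CiCM than in MEF (1.70, limma adjusted p = 1.01e-05) and stayed under the minimum difference in CM against MEF (0.80, limma adjusted p = 0.00110).

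Cryab encodes alphaB-crystallin, which binds desmin filaments and titin and whose human mutations cause desmin-related myopathy. Its signals were 14.32, 14.23 and 14.26 in CiCM and 14.87, 15.27 and 14.99 in CM, against 12.13, 12.24 and 12.15 in MEF. Fibroblasts therefore carried a high signal already, and the 3 groups did not overlap. The gain was 2.10 ± 0.10 in CiCM (SE; limma adjusted p = 8.30e-08) and 2.87 ± 0.10 in CM (limma adjusted p = 3.02e-09), each against MEF. CiCM minus CM was -0.77, with a 95% interval of -0.998 to -0.545 (limma adjusted p = 7.11e-05), below the minimum difference. In the RefSeq annotation the spans of Cryab and Hspb2 overlap, and the 2 genes are known to lie head to head. For Cryab the CM arrays were the highest, whereas for Hspb2 the CiCM arrays were.

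Des encodes desmin, the muscle intermediate filament protein that Cryab binds. It read 13.97, 13.999 and 14.06 in CiCM and 13.58, 13.85 and 14.02 in CM, against 9.66, 9.68 and 9.47 in MEF. CiCM and CM arrays overlapped, and both lay far above MEF, by 4.40 ± 0.11 and 4.21 ± 0.11 (SE; limma adjusted p = 8.76e-10 and 4.08e-10).

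Hspb8 works with the co-chaperone BAG3 to hand damaged Z-disc proteins such as filamin to autophagy. It was at 13.50, 13.63 and 13.55 in CiCM and at 13.17, 13.35 and 13.36 in CM, against 10.68, 10.73 and 10.73 in MEF. CiCM and CM lay close together and well above MEF. The differences from MEF were 2.85 ± 0.079 in CiCM (SE; limma adjusted p = 1.66e-09) and 2.59 ± 0.079 in CM (limma adjusted p = 1.09e-09), which are 7.22-fold and 6.00-fold. CiCM minus CM was 0.27, with a 95% interval of 0.09 to 0.44 (limma adjusted p = 0.0128), and the sign turned when the probe sets of the gene were averaged (-0.07).

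Bag3, the partner of Hspb8, followed another order. It was at 11.24, 11.33 and 11.48 in CiCM and at 12.51, 12.44 and 12.48 in CM, against 10.80, 10.80 and 10.81 in MEF. CM were highest and CiCM were closer to MEF. The difference from MEF was 1.67 ± 0.081 in CM (SE; limma adjusted p = 2.63e-08) and 0.54 ± 0.081 in CiCM (limma adjusted p = 0.000271), the second under the minimum difference. The first dropped under it with arrays levelled on hybridisation controls (0.87). CiCM were lower than CM by -1.13 (limma adjusted p = 8.50e-07), which became -0.82 with arrays centred on their medians and -0.55 with arrays levelled on hybridisation controls.

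Hspb1, known as HSP25 in mouse and HSP27 in humans, is phosphorylated by MAPKAPK2 and caps and protects actin filaments. It varied least of the family across groups, at 13.77, 13.99 and 13.92 in CiCM and 13.69, 13.50 and 13.77 in CM, against 13.12, 13.13 and 13.19 in MEF. All groups were high and the MEF arrays lowest, with CiCM and CM almost touching. The difference was 0.75 ± 0.091 for CiCM minus MEF (SE, 95% interval 0.55 to 0.95; limma adjusted p = 6.43e-05) and 0.51 ± 0.091 for CM minus MEF (95% interval 0.31 to 0.71; limma adjusted p = 0.000498). Both were under the minimum difference, so neither was called. The sign of the second turned with arrays levelled on hybridisation controls (-0.30, limma adjusted p = 0.189), a scaling that lowered all CM minus MEF differences by -0.80. For CiCM minus CM the difference was 0.24 (limma adjusted p = 0.0395).

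Hspb6, or HSP20, is phosphorylated by the cAMP-dependent kinase PKA and relaxes smooth muscle and protects heart muscle in that form. Of the 7 genes, it alone was called in CM against MEF and not in CiCM against MEF. Its signals were 10.45, 10.50 and 10.63 in CiCM and 13.66, 14.10 and 14.25 in CM, against 10.03, 10.04 and 10.06 in MEF. CiCM lay just above MEF without overlap, and CM lay far above both. CM exceeded MEF by 3.96 ± 0.13 (SE; limma adjusted p = 2.12e-09), or 15.5-fold. CiCM minus MEF was 0.48, with a 95% interval of 0.19 to 0.78 (limma adjusted p = 0.0116), and was not called. CiCM minus CM was -3.47 ± 0.13 (limma adjusted p = 1.33e-08), an 11.1-fold lower signal, or -3.65 without CM replicate 1. Across the 24 alternative settings this difference stayed between -3.65 and -2.90, past the threshold in each. Prkaca, a catalytic subunit of PKA, was higher by 1.72 in CiCM and by 1.88 in CM than in MEF (limma adjusted p = 2.70e-07 and 4.60e-08). Prkacb, another catalytic subunit, differed from MEF by -0.54 in CiCM and -0.28 in CM (limma adjusted p = 0.00478 and 0.0711), and neither difference was called.

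Set directly against heart cells, the family was split. In CiCM against CM, Hspb3 was called higher, Hspb6 and Hspb7 were called lower, and Hspb1, Hspb2, Hspb8 and Cryab differed by less than 1, where 16.5% of tested genes were called higher, 19.0% lower and 35.5% in either direction. The median difference of the 7 genes was 0.24, against -0.03 over all tested genes. Levelling on hybridisation controls raised all CiCM minus CM differences by 0.58 and brought Hspb2 to 1.03 (limma adjusted p = 0.00136), past the minimum. That scaling also changed the background: 4078 genes were then higher and 1357 lower in CiCM than in CM, in place of 2075 and 2387. With arrays centred on their medians there were 2987 and 1760. For CM against MEF the counts with levelled arrays were 1523 higher and 5579 lower in place of 2779 and 2736, with centred arrays 2070 and 3912, and for CiCM against MEF with levelled arrays 1133 and 2079 in place of 1451 and 1536. The 5 and 6 members called higher than in MEF were called under all of these scalings.

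**Figure D2:**
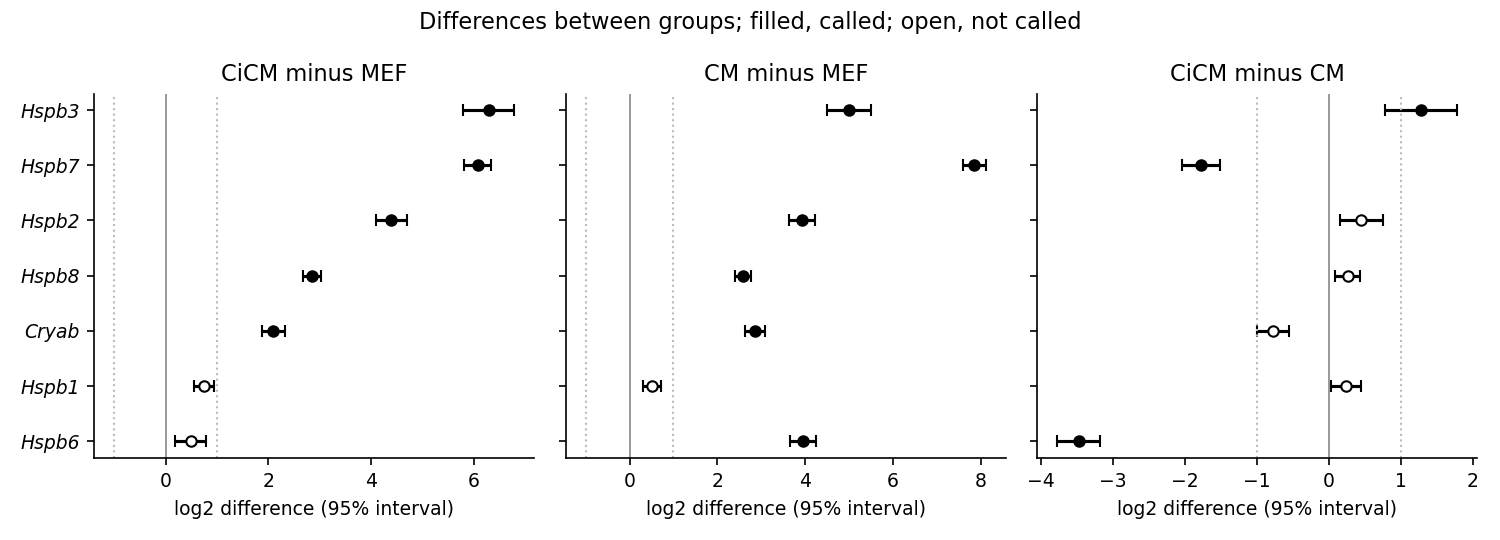
Log2 difference (horizontal axis, with 95% interval from limma) of each gene for CiCM minus MEF, CM minus MEF and CiCM minus CM; filled points were called and dotted lines mark a difference of 1 in each direction. Hspb6 is near 0.48 for CiCM minus MEF and 3.96 for CM minus MEF, and in the last panel Hspb3 lies right of 1 while Hspb6 and Hspb7 lie left of -1.

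The remaining probe sets mostly repeated the chosen ones, and 13 of the 14 passed the filter on low values. Both other Hspb7 probe sets were called higher against MEF, by 5.52 and 7.42 in CiCM and by 7.30 and 9.19 in CM. The dimmer of them had MEF values of 5.39, 5.26 and 1.56, and its CiCM minus CM difference of -1.77 missed the threshold (limma adjusted p = 0.0708). A second Cryab probe set gave 2.69 in CiCM and 3.45 in CM against MEF, larger than the chosen probe set. A further Cryab probe set stayed under the filter in every group, with group means of 5.55 in CiCM, 5.40 in CM and 5.09 in MEF.

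A second Hspb8 probe set gave 3.05 in CiCM and 2.36 in CM against MEF, near the chosen probe set. Its CiCM minus CM difference was 0.70 (limma adjusted p = 6.83e-05), beside 0.27 on the chosen one. The remaining one, whose name ends in x_at, did not follow, at 6.02, 8.54 and 8.95 in CiCM and 8.59, 9.34 and 9.06 in CM, against 8.39, 8.16 and 7.03 in MEF. Its groups overlapped and no comparison of it was called (limma adjusted p of 0.980, 0.143 and 0.144 for CiCM minus MEF, CM minus MEF and CiCM minus CM). On this probe set CiCM minus CM was -1.16. The suffix x_at marks probe sets whose probes can also match other transcripts. The values of Prkaca, Flnc and Hspa8 were also read from x_at probe sets. For the second Hspb1 probe set, also an x_at one, the difference was 0.97 in CiCM and 0.21 in CM against MEF, so both probe sets of Hspb1 stayed under the minimum. On that second one CM and MEF overlapped, with CM replicate 2 at 12.79 and MEF replicate 1 at 12.81 (limma adjusted p = 0.117 for CM minus MEF).

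**Figure D3:**
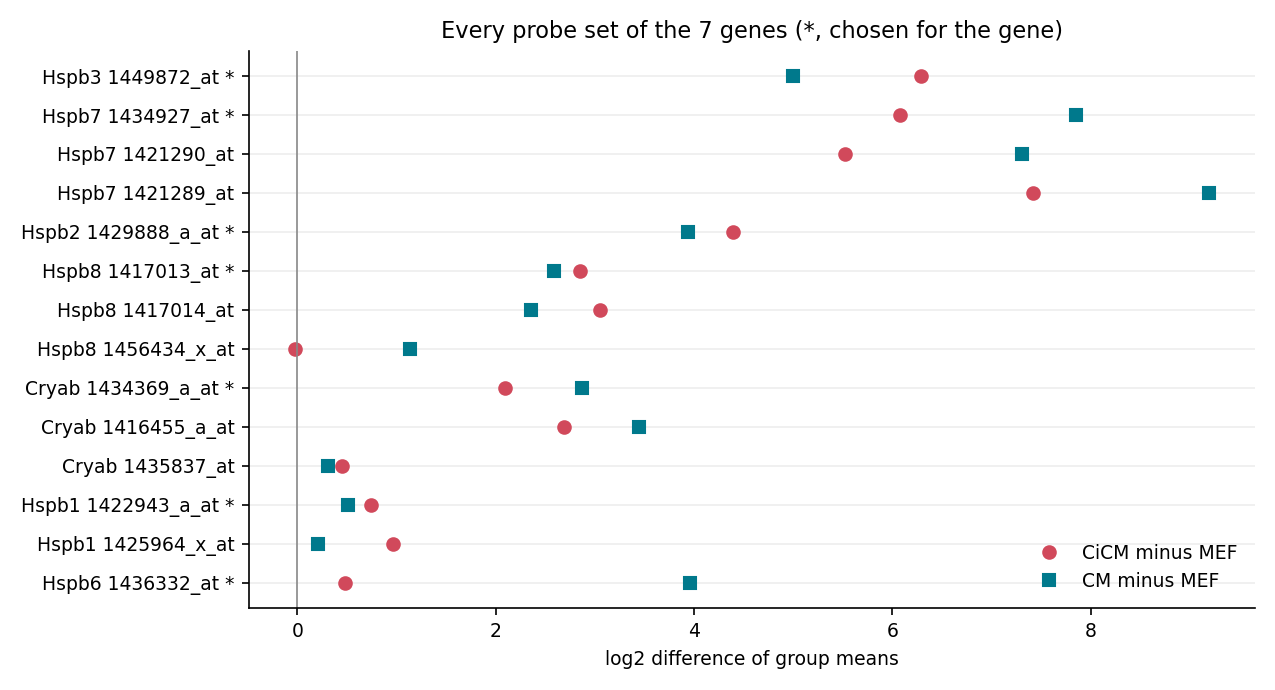
Difference of group means in log2 signal (horizontal axis) for every probe set of the 7 genes, with CiCM minus MEF as circles and CM minus MEF as squares; an asterisk marks the probe set chosen for the gene. The 3 Hspb7 probe sets agree in order with CM above CiCM, the x_at probe set of Hspb8 and the dimmest one of Cryab lie apart from the other probe sets of their genes, and Hspb6 has the widest gap between both comparisons.

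Profiles over the 9 arrays were compared after centring each gene on its own mean, with the root mean square difference in log2 units as the measure. The points are 3 groups of 3 arrays, so a likeness reflects mainly the group means. Nearest to Hspb7 was Actc1, cardiac alpha-actin, at 0.249, followed by Hrc, a calcium-binding protein of the sarcoplasmic reticulum, at 0.299 and Itgb1bp2 (melusin) at 0.378. Nearest to Hspb2 were Des at 0.175, Rtn2 at 0.208 and Atp1b1, a sodium pump subunit, at 0.211. For Hspb3 they were Ankrd23 at 0.336, Popdc3 at 0.368 and Cavin4, a muscle cavin, at 0.379. Those of Hspb6 were Phyh, a peroxisomal enzyme of branched fatty acid breakdown, at 0.138, Acaa2, a mitochondrial thiolase, at 0.141 and Ablim1 at 0.161.

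Hspb8 was followed most closely by Cystm1 at 0.080, Tgm2 (transglutaminase 2) at 0.143 and Aamdc at 0.167. Cryab had Rap1gap2 at 0.153, Limch1 at 0.167 and Slc25a12, a mitochondrial aspartate and glutamate carrier, at 0.169. Hspb1 had Tgfbr3 at 0.057, Ensa at 0.060 and Tmub2 at 0.077. Pearson's r with the member was between 0.973 and 1.00 for all of these 21 genes over 9 arrays. Within the family, the closest pair by this measure was Hspb8 and Cryab at 0.447, and the most distant was Hspb1 and Hspb7 at 3.10. By correlation Hspb2 and Hspb8 were closest at r = 0.998 and Hspb1 and Hspb6 farthest at r = 0.302, over 9 arrays.

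Chaperones of other families were called in both directions. In the list of heat shock factors and stress-inducible chaperones, 7 of 21 tested genes were called higher for CiCM against MEF and none lower, with a median of 0.11. In CM against MEF, 4 were higher and 6 lower (median -0.58), and in CiCM against CM 9 were higher and 1 lower (median 0.86). Over all tested genes, 11.6%, 22.1% and 16.5% were called higher in these comparisons and 12.2%, 21.8% and 19.0% lower, which also bears on the lists that come next. The 7 became 4 with the largest constant added, and the 4 became 2 with that constant and 1 with arrays centred on their medians. Among the 7, Hspa1l, Hsf2 and Hsf4 had MEF means under the filter at 6.58, of 2.77, 6.16 and 5.12. Hsf4 was also under it in CiCM, at 6.46, and was tested because CM reached it. With probe sets averaged, the 1 lower in CiCM than in CM was lost. Hspa1b, an inducible HSP70, was at 12.81, 12.51 and 12.40 in CiCM and at 10.01, 8.55 and 8.11 in CM, against 10.61, 10.68 and 10.68 in MEF. CiCM were highest and CM lowest, with CM replicate 1 above the other CM arrays. The difference was 1.92 for CiCM minus MEF, -1.77 for CM minus MEF and 3.68 for CiCM minus CM (limma adjusted p = 0.00153, 0.00152 and 9.92e-06). Without CM replicate 1 the last 2 were -2.33 and 4.24. Hspa1b and Hspa1a, both among the 7 genes higher in CiCM than in MEF, are near-identical, so their probe sets may share signal. Hsf1 was not analysed here.

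Hsph1, an HSP110, was higher in CiCM than in MEF by 1.19 and than in CM by 1.97 (limma adjusted p = 0.000152 and 2.28e-06), the first of these under 1 with probe sets averaged or arrays levelled on hybridisation controls (0.95 and 0.96). Serpinh1, the collagen chaperone HSP47, was lower in CM than in MEF by -1.89 (limma adjusted p = 9.90e-08). Hspa8, the constitutive HSC70 that receives clients from small heat shock proteins, was at 14.46, 14.63 and 14.62 in CiCM and 14.40, 14.55 and 14.29 in CM, against 14.48, 14.39 and 14.35 in MEF. Its groups overlapped and no comparison was called (limma adjusted p = 0.158, 0.950 and 0.154).

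In the list of the BAG3 complex and chaperone-assisted autophagy, 2 of 12 genes were higher for CiCM against MEF and none lower (median 0.33). In CM against MEF, 4 were higher and 1 lower (median 0.38), so that 2 of 12 and 4 of 12 lie near the shares over all tested genes. The 2 became 1 in 6 settings, among them without CiCM replicate 3 and without MEF replicate 1, and the 1 lower was lost with probe sets averaged. Synpo2, a Z-disc adaptor of BAG3, was higher by 3.91 in CiCM and 3.75 in CM (limma adjusted p = 8.76e-10 and 4.07e-10), or by 1.51 and 2.32 as the lowest values over the settings tried. The other gene called in CiCM, Dnajb5, stood at 1.00 and lost its call in 10 of 24 settings. Among 4 myosin chaperones, 2 were higher and 0 lower for CiCM against MEF, and 2 higher and 1 lower for CM against MEF. Unc45b was higher by 7.47 in CiCM and 8.43 in CM than in MEF and Smyd1 by 6.25 and 7.45. With 32 added, these were 6.00 and 6.97 for Unc45b and 6.23 and 7.25 for Smyd1. Both genes had every MEF value under 6.58, so they were tested because CiCM and CM carried them. Hsp90aa1 differed by -0.23 in CiCM and was lower by -1.43 in CM, each against MEF. Unc45a differed by -0.22 and -0.67, and neither was called. With probe sets averaged, Smyd1 was higher by 3.05 and 3.88. Of 12 cytoskeletal clients and partners, 8 were higher and 2 lower for CiCM against MEF (median 3.54), and 7 higher and 3 lower in CM than in MEF (median 2.94). Vim, the mesenchymal intermediate filament protein, was among the lower ones, at -1.07 and -1.23. Ttn and Actn2, counted as higher in both comparisons, had every MEF value under 6.58, with means of 3.79 and 4.69. These genes too were tested because CiCM and CM carried them.

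Beyond the 7 genes, Cryaa (lens alphaA-crystallin), Hspb9 and Odf1, which belong to lens or testis, lay under the filter in all groups. Hspb11, which is named with the family but acts in cilia, was lower in CM than in MEF by -1.75 (limma adjusted p = 7.62e-06), or -0.54 with its probe sets averaged.

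**Figure D4:**
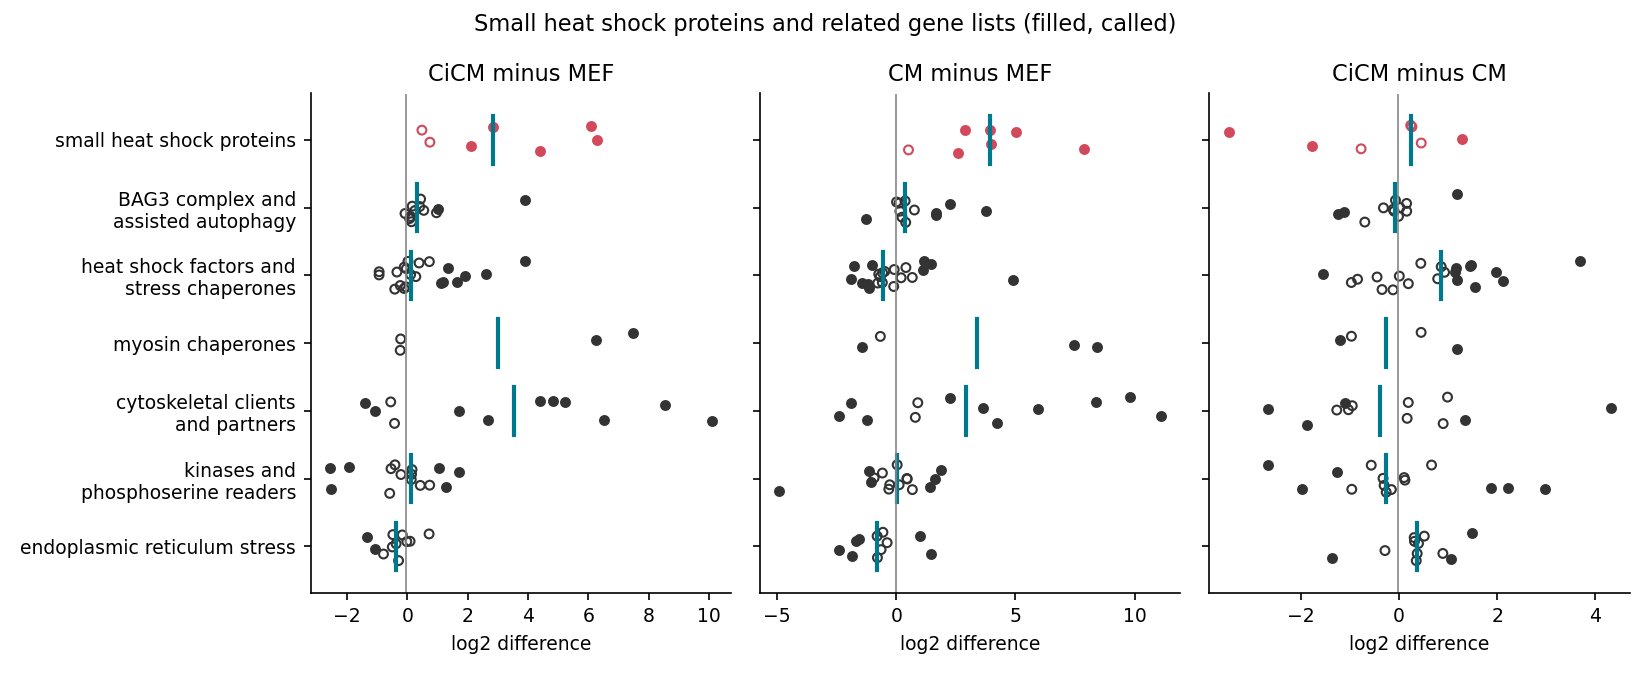
Log2 differences (horizontal axis) of the 7 small heat shock protein genes (red) and of the tested genes of 6 related lists (dark), for CiCM minus MEF, CM minus MEF and CiCM minus CM; filled points were called, thick bars are list medians and the thin line is the median of all tested genes. The medians of the small heat shock proteins lie at 2.85, 3.94 and 0.24, and stress chaperones lie to the right in the last panel, with a median of 0.86.

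Cell type markers were also summed on each array, and whether the sums follow the members was not tested. The summed linear signal of the 10 skeletal muscle markers ranged from 128126 to 144654 in CiCM and from 17146 to 34444 in CM, against 959 to 1067 in MEF. That of the 10 cardiomyocyte markers ranged from 10352 to 12204 in CiCM and from 262494 to 287369 in CM, against 227 to 365 in MEF. In CiCM the cardiomyocyte sum came mainly from Myl2, at 13.41, 13.41 and 13.22, far above every other marker of that list. In CM the skeletal muscle sum came mainly from Ckm, at 13.93, 14.97 and 14.99. These sums therefore do not show a broad cardiomyocyte signal in CiCM or a broad skeletal muscle signal in CM. Most members are expressed in both kinds of striated muscle, and the part of either in their differences was not tested. In smooth muscle, where Hspb6, Hspb1 and Cryab are also expressed, 6 markers summed to between 35678 and 37996 in CiCM and 20140 and 26527 in CM, against 34527 to 34903 in MEF. Des, which striated muscle also expresses, is among these 6. Without it, a choice made after seeing the data, the other 5 summed to between 18645 and 21981 in CiCM and 6168 and 9968 in CM, against 33817 to 34094 in MEF. The part of smooth muscle in the Hspb6 values was not tested. Fibroblast markers summed to between 106369 and 111159 in CiCM and 36425 and 47906 in CM, against 95329 to 97341 in MEF. The 5 endothelial markers summed to between 177 and 222 in CiCM and 10526 and 11482 in CM, against 423 to 669 in MEF, and macrophage markers to between 1235 and 1581 in CiCM and 7399 and 8836 in CM, against 7252 to 7391 in MEF. The 4 adipocyte markers on the array summed to between 1966 and 2206 in CiCM and 79333 and 87255 in CM, against 3859 to 4016 in MEF, and Fabp4 and Lpl were high on all CM arrays while Adipoq and Cidec were high on replicate 1. The part of endothelial cells, macrophages and fat cells in the CM values was not tested.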

How the data were processed

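Total RNA of 3 CiCM, 3 CM and 3 MEF samples was labelled with a 3' kit and hybridised, 1 array per sample, per the labels' protocols. Values in the deposited table are log2 signals, with MAS5 named per the submitters' processing notes. The log2 scale was read from the values: on the linear scale, trimming 2% of probe sets at each end left a mean of 500.003 for all 9 arrays. Scan batches were not analysed here. The number of arrays limits the precision.

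Each gene was represented by its single-symbol probe set with the highest mean over the 9 arrays, named through GEO's platform annotation, and genes whose highest group mean was under 6.58 were left out. Differences were tested with limma 3.58.1 (R 4.3.3), using lmFit, then eBayes with trend, 2-sided, over all 9 arrays at once. p-values were adjusted by the Benjamini-Hochberg method over 12559 genes. Values for single probe sets come from a fit of every probe set past the filter. With 3 arrays a group, exact permutation reaches no p under 0.1. The fit was tested on simulated data.

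The members and lists were chosen with earlier results of these data known. Named genes are the 7 members, Bag3, Hsf1, Hspa8, Des and Flnc, up to 4 called genes per list, and the 3 nearest profiles of each member; Dmpk, Prkacb and Vim were named after their values were seen. Deviations of same-numbered replicates from their group means hardly correlated over genes (r between -0.016 and 0.067). This cannot exclude a small shared effect, and the labels do not say whether numbers pair samples. The main fit did not pair them. Alternatives were added constants, filters, scalings, probe set choice, samples fitted, variance trend, array weights, the minimum difference, the replicate block and leaving out each array. Figures used matplotlib 3.10.9.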

Additional observations from a re-analysis of the deposited data

How the results depend on the processing

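Of 144 counts of called members under 24 alternatives, 142 stayed within 1.5 times the reported one. The other 2 concern members higher in CiCM than in CM: 2 in place of 1 with arrays levelled on 18 hybridisation controls, and 4 with no minimum difference. Leaving out any array kept 5 members higher in CiCM than in MEF, 6 higher in CM than in MEF, and 1 higher and 2 lower in CiCM than in CM. The replicate block left those counts at 5, 6, 1 and 2. Over all tested genes, no minimum difference gave 3043 higher and 3486 lower for CiCM against MEF, 4218 and 4572 for CM against MEF, and 4077 and 4012 for CiCM against CM. Genes lower in CiCM than in MEF numbered 1001 with the filter at the 75th percentile and 948 with the largest constant added. Levelled arrays gave 1523 higher and 5579 lower in CM than in MEF, and 4078 higher and 1357 lower in CiCM than in CM. Signs turned for uncalled differences only. With levelled arrays these were Hspb1 (-0.30) and Flnc (-0.0080) for CM minus MEF and Hspa8 for CiCM minus MEF (-0.0662). With probe sets averaged it was Hspb8 for CiCM minus CM (-0.0662). Hspa8 for CM minus MEF, at 0.01, turned to -0.80 with levelled arrays, -0.40 after quantile normalization, -0.36 with centred arrays, -0.0289 with probe sets averaged and -0.0023 with array weights, and ranged from -0.0636 to 0.0679 when 1 array was left out. Levelling and centring shift all genes of an array by the same amount, while quantile normalization, averaging of probe sets and array weights do not. The cause of the turned signs was not tested. Signals under 6.58, such as Hspb3 in MEF, are near the floor, so the size of differences from them depends on the processing. For Hspb3, CiCM minus MEF was 6.29 as deposited and 5.19 with 32 added.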

Other observations

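The list of 15 kinases and phosphoserine readers of small heat shock proteins also holds Ppp1r1a, a phosphatase inhibitor that is neither. In each of the 3 comparisons, 3 of the 15 were called higher and 3 lower. These counts are near the shares over all tested genes (11.6% higher and 12.2% lower for CiCM against MEF, 22.1% and 21.8% when CM are set against MEF, 16.5% and 19.0% between CiCM and CM). Ppp1r1a was among those lower in CiCM than in MEF and lower in CiCM than in CM. It was at 5.82, 3.68 and 3.21 in CiCM, overlapping CM at 8.72, 6.88 and 5.10. Its call was lost in 8 of 23 settings against MEF and in 7 of 23 against CM. The 3 lower for CiCM against MEF became 1 without CiCM replicate 3 or without any 1 of the MEF arrays, and 0 with the largest constant added. The 3 lower for CiCM against CM became 1 without CM replicate 2 or with that constant. Prkd1, protein kinase D1, was higher in CiCM than in CM by 2.23, with a lowest value of 1.96 over the settings tried. Mapkapk2, the kinase of HSPB1, was higher in CM than in MEF by 1.39, or 0.59 with arrays levelled on hybridisation controls. Mapk13, a p38 kinase, was lower in CM than in MEF by -4.92, or by -2.54 with 32 added. Its CM values were 3.17, 3.20 and 1.67 and its CiCM mean was 5.66, under the filter at 6.58. Mapk13 was therefore tested because MEF carried it, at a mean of 7.60.

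Of 11 genes of endoplasmic reticulum stress, none was called higher and 2 lower for CiCM against MEF (median -0.37), and 2 were higher and 4 lower in CM than in MEF (median -0.79), beside the same shares over all tested genes. For CM against MEF these became 1 higher and 7 lower with arrays centred on their medians, and the 2 higher became 1 without CM replicate 1, without MEF replicate 1 or with either of the larger constants added. Ddit3, the stress factor CHOP, was lower by -1.07 in CiCM and -1.59 in CM, and Pdia4, a disulfide isomerase, by -1.35 and -2.41, each against MEF. Atf4 was lower by -1.85 in CM than in MEF and higher by 1.48 in CiCM than in CM. Fbxo32 (atrogin-1), a muscle ubiquitin ligase from the list of clients and partners, was higher in CM than in MEF by 2.25 and lower in CiCM than in CM by -2.67.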
